A study of Homo sapiens with 14 samples.

Results

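The transcripts described here come from 43 genes whose products copy DNA and repair it by homologous recombination. They were listed by symbol, with no threshold on a measured value but with earlier results of these data known, and are 43 of the 23106 gene symbols counted in each library. All 43 were counted in every library and passed the filter on low counts in every comparison. Polyadenylated RNA was sequenced from PC3, a human prostate cancer cell line grown in DMEM/Ham's F12 medium, and from HCT116, a human colorectal cancer cell line grown in McCoy's 5a medium. Cells of each line were kept in normoxia (21% O2) or in hypoxia (0.5% O2) for 16 h, with 4 libraries per condition in PC3 and 3 in HCT116. No engineered allele or drug is named in the labels of any group. The counts summed to between 98021966 and 123935458 per library in normoxic PC3 cells and between 71228454 and 96159803 in hypoxic PC3 cells. They summed to between 136931675 and 147934177 in normoxic HCT116 cells and between 133067391 and 150630928 in hypoxic HCT116 cells.

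DNA replication starts at origins, where the origin recognition complex (ORC), CDC6 and CDT1 load the MCM2 to MCM7 helicase ring in G1 phase, a step called licensing that geminin (GMNN) blocks later in the cycle. In S phase CDC45 and the GINS complex join the ring to form the active CMG helicase, replication factor C (RFC) loads the PCNA clamp, and DNA polymerases copy both strands from primers while FEN1 and LIG1 join the lagging-strand fragments. Ribonucleotide reductase (RRM1, RRM2) and thymidylate synthase (TYMS) supply the nucleotides. BRCA1, BRCA2, RAD54L, BLM, EXO1 and the Fanconi anaemia protein FANCD2 act in recombination and at stalled forks. Many of these genes are transcribed at the G1/S transition under E2F factors, and lower expression of BRCA1 has been described in hypoxic cells. In RNA from a population of cells, a smaller share of cells in S phase and less RNA per cell cannot be told apart.

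Promoters are shown for the 3 genes that were lower in hypoxic PC3 cells (RFC4, BLM and LIG1) and for GINS2, the member furthest below HCT116 in PC3, and E2F1, the member furthest above it. Each runs from 250 bases before to 50 bases after the annotated start of transcription, 5′ to 3′ on the strand of the gene, as given by RefSeq for GRCh38.p14. Capitals mark the E2F sites, here any of TTTCCCGC, TTTCGCGC, TTTGCCGC and TTTGGCGC on either strand. The windows are chr3:186806433-186806732 on the minus strand for RFC4, chr15:90717096-90717395 on the plus strand for BLM, chr19:48170295-48170594 on the minus strand for LIG1, chr16:85688905-85689204 on the minus strand for GINS2 and chr20:33686336-33686635 on the minus strand for E2F1.
RFC4: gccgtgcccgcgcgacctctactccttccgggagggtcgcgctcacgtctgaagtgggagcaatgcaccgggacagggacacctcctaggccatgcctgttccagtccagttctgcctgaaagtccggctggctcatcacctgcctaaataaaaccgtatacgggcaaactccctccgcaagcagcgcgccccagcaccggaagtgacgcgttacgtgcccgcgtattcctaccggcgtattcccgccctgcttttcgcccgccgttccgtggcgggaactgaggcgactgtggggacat
BLM: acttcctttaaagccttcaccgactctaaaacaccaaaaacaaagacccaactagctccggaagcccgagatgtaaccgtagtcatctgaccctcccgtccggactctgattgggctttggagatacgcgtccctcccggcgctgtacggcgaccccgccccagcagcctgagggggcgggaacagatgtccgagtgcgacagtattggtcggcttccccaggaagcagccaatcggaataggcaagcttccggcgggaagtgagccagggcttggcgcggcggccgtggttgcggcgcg
LIG1: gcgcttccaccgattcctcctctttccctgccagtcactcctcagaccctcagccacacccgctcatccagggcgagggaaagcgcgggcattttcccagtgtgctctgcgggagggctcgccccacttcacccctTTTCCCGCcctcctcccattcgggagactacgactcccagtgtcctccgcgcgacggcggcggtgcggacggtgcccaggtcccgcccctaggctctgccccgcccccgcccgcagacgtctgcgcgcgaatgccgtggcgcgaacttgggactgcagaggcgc
GINS2: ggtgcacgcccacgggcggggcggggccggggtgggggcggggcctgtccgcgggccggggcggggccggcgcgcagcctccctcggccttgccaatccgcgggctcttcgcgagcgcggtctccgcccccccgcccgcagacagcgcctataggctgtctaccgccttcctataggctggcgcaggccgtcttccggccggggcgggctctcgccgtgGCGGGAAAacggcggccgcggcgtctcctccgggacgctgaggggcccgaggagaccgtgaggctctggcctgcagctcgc
E2F1: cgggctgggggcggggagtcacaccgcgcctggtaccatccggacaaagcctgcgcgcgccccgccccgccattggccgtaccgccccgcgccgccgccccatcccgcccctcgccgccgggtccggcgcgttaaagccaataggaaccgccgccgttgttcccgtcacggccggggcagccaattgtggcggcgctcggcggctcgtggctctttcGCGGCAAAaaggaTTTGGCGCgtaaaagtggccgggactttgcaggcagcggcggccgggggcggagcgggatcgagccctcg

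The window of LIG1 held 1 E2F site, which began 114 bases before the start, and that of GINS2 held 1, which began 31 bases before it. E2F1 held 2, at 33 and 20 bases before the start. None of these letters occurred in the windows of RFC4 and BLM. Across the 39 genes of the 43 with a promoter in the RefSeq table, 21 (53.8%) held an E2F site, against 4.96% of the 10933 promoters of all genes tested here. MCM4, MCM5, GINS4 and CCNE2 had no entry. Other short motifs were closer to their share among all promoters. The CCAAT box (CCAAT) occurred in 56.4% of the 39 against 36.3%, the GC box (GGGCGG) in 76.9% against 68.1%, and the core of the hypoxia response element (ACGTG or GCGTG) in 66.7% against 61.1%. The cell cycle homology region (TTTGAA) occurred in 2.56% of the 39, which is RRM1 alone, against 9.86%. Both strands were searched, a promoter was counted once for each motif, and overlapping matches were allowed. E2F sites stood in the windows of 16 of the 28 genes lower in PC3 than in HCT116 that had a promoter entry, and of 2 of the 3 that were higher, MCM8 and E2F1.

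The libraries were first set against their labels. All 12 genes of a list of known hypoxia-induced transcripts rose in hypoxia in both lines. NDRG1, a canonical target of the hypoxia-inducible factors, went from a mean of 346 to 2532 CPM (counts scaled to library size, on one TMM scale over the 14 libraries) in PC3 and from 77.0 to 523 CPM in HCT116. The intestinal factor CDX2 lay at 17.6 CPM in normoxic HCT116 cells and at 0 in PC3, but CDX1 was at 0 and CDH17, VIL1 and LGR5 were near 0 in HCT116. Among prostate markers HOXB13 lay at 81.0 CPM in normoxic PC3 cells, whereas KLK3 was at 0 and KLK2 and FOLH1 were at 0 or near it. The epithelial genes EPCAM, KRT8 and KRT18 were abundant in both lines, whereas CDH1, which encodes E-cadherin, lay at 328 CPM in normoxic PC3 cells and 29.3 CPM in normoxic HCT116 cells. In the list of blood, endothelial and fibroblast markers, whose sum lay between 17.5 and 60.9 CPM in every library, the most abundant gene was CD68 in PC3 (36.2 CPM in normoxia) and COL1A1 in normoxic HCT116 cells (10.6 CPM), and DCN was at or near 0 in both.

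The 43 genes together made up a smaller part of the transcriptome in PC3 than in HCT116. Their summed abundance was 4309, 4662, 4854 and 4313 CPM in the normoxic PC3 libraries and 7180, 7129 and 6893 CPM in the normoxic HCT116 libraries. In hypoxia it was 3889, 4569, 4550.4 and 4422 CPM in PC3 and 7301, 7016 and 7175 CPM in HCT116. The lines did not overlap in either condition, and the conditions overlapped within each line. RRM2, the regulated subunit of ribonucleotide reductase, was the most abundant member, with a mean of 743 ± 103 CPM (SD, n = 4) in normoxic PC3 cells and 753 ± 28.5 CPM (SD, n = 3) in normoxic HCT116 cells. CCNE1, which encodes cyclin E1, was the least abundant in PC3, at 14.2 ± 1.80 CPM. In HCT116 the least abundant was BRCA2, at 27.2 ± 2.35 CPM.

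**Figure D1:**
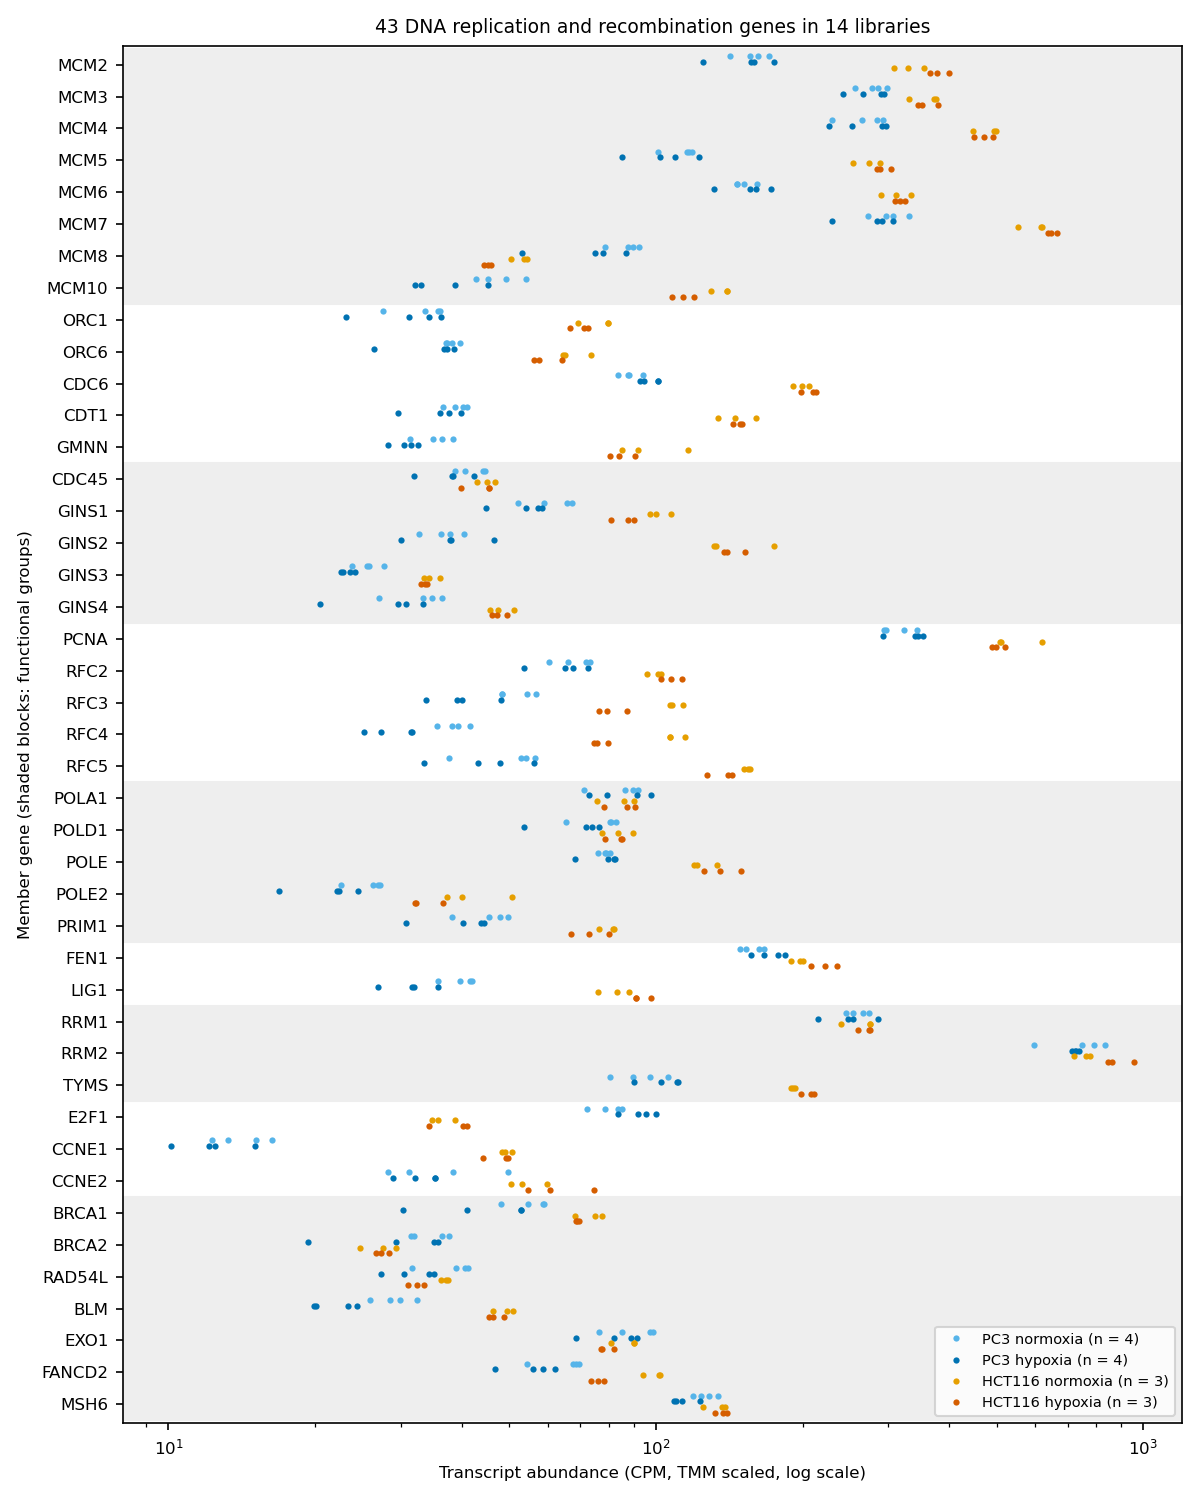
Transcript abundance of the 43 genes (rows, in blocks by function) in each library (points) on a log axis in CPM, coloured by line and condition, with n = 4 in PC3 and n = 3 in HCT116. RRM2 lies furthest to the right in all 4 groups, and the points of the lines are apart for most helicase, licensing and clamp loader genes.

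Within complexes whose subunits act together, transcript levels were compared per kilobase of the canonical GENCODE transcript (CPM per kb), in normoxia. Among MCM2 to MCM7, which form a single ring, MCM7 was the most abundant, at 122 CPM per kb in PC3 and 242 CPM per kb in HCT116. The lowest was MCM5, at 32.7 CPM per kb in PC3 and 78.5 CPM per kb in HCT116. The rings were not ordered alike, since MCM4 at 118 and MCM3 at 117 CPM per kb lay close together in HCT116, whereas MCM3 at 91.0 CPM per kb exceeded MCM4 at 65.8 CPM per kb in PC3. In the GINS complex GINS2 was the most abundant subunit in HCT116, at 55.7 CPM per kb, above GINS1 at 30.6, GINS3 at 15.7 and GINS4 at 12.8. In PC3 the corresponding values were 14.02, 18.4, 11.7 and 8.72 CPM per kb, and GINS1 led. The clamp PCNA lay at 246 CPM per kb in PC3 and 428 CPM per kb in HCT116, and the subunits of its loader lay far below, at 40.3 (RFC2), 22.5 (RFC3), 28.3 (RFC4) and 23.9 (RFC5) CPM per kb in PC3. In HCT116 the loader subunits lay at 59.2, 47.5, 80.2 and 73.2 CPM per kb in the same order. By their means RFC2 was the highest of the 4 in PC3 and the third in HCT116. The MCM7 gene overlaps AP4M1 and 3 microRNA genes in the annotation, and the strand setting of the counting is not stated, so its level is uncertain to that extent.

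The first comparison asked how the lines differed in normoxia. Of the 43 genes, 32 were lower in PC3 than in HCT116 and 3 were higher, at an adjusted p under 0.05 in edgeR's quasi-likelihood test. Among all 15206 genes tested, 40.5% were lower and 42.9% were higher. The median log2 fold change of the 43 was -0.75, against 0.03 over all genes tested. Of the called members 17 differed by at least 2-fold, and 16 of these were lower in PC3. The share of all genes past that fold is not given here, so these counts describe the members only. The lines differ in tissue of origin, genotype and medium, and these cannot be told apart.

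Licensing genes were lower in PC3 throughout. All 5 were called, with a median log2 fold change of -1.22. CDT1 (chr16:88870197-88875666 in GRCh37), which loads the helicase, lay at 36.5, 40.9, 40.3 and 38.7 CPM in the normoxic PC3 libraries and at 161, 145 and 134 CPM in the HCT116 libraries. Every PC3 library was thus far below every HCT116 library. Of all genes tested, 40% had every normoxic PC3 library below every HCT116 library, and 42.9% had every one above. The difference was 3.80-fold (log2 fold change -1.93, SE 0.07, adjusted p = 7.5e-09). GMNN, the inhibitor of CDT1, was also lower (log2 fold change -1.49, SE 0.11). ORC1 and ORC6, subunits of the origin recognition complex, had log2 fold changes of -1.22 and -0.85, and CDC6, which joins ORC at the origin, had one of -1.19.

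The helicase and its partners differed unevenly. All 6 ring subunits were called lower in PC3, from MCM5 (log2 fold change -1.28, SE 0.07) to MCM3 (-0.38, SE 0.07), with MCM2 at -1.09, MCM6 at -1.06, MCM7 at -1.01 and MCM4 at -0.86. MCM10, a scaffold needed to start the helicase, was lower by 2.89-fold (log2 fold change -1.53, SE 0.08). GINS2 (chr16:85709804-85723679) showed the largest difference of the 43. It lay at 32.7, 37.9, 40.5 and 36.3 CPM in PC3 and at 131, 133 and 175 CPM in HCT116, and the groups were far apart. The difference was 4.03-fold (log2 fold change -2.01, SE 0.11, adjusted p = 1.1e-07). The other GINS subunits had smaller differences, with log2 fold changes of -0.75 for GINS1, -0.57 for GINS4 and -0.45 for GINS3, and CDC45 did not pass the test (-0.12, SE 0.06, adjusted p = 0.12). GINS2 overlaps GSE1, which differed by -0.34.

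The clamp, its loader and the enzymes of Okazaki fragments were lower in PC3 as well. RFC5 (log2 fold change -1.64, SE 0.12), RFC4 (-1.52, SE 0.06), RFC3 (-1.10, SE 0.07), PCNA (-0.82, SE 0.09) and RFC2 (-0.58, SE 0.07) were all called. LIG1, the ligase that seals the fragments, was lower by 2.10-fold (log2 fold change -1.07, SE 0.07), and FEN1, the nuclease that trims their flaps, by less (-0.33, SE 0.06). Among the polymerase genes POLE, its subunit gene POLE2 and the primase gene PRIM1 were lower (log2 fold changes -0.69, -0.75 and -0.84). The catalytic subunits POLA1 and POLD1 were not called, with log2 fold changes of -0.01 (SE 0.09, adjusted p = 0.95) and -0.13 (SE 0.08, adjusted p = 0.17). RFC5 and WSB2 overlap in the annotation, as do PRIM1 and NACA and FEN1 and FADS2. NACA, on the strand of PRIM1, was itself lower in PC3 (log2 fold change -1.11, SE 0.08), whereas WSB2 (0.42) and FADS2 (4.24) were higher.

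Nucleotide supply split between its enzymes. TYMS was lower in PC3 by 2.07-fold (log2 fold change -1.05, SE 0.08), and its gene overlaps ENOSF1 (-0.19, SE 0.09, adjusted p = 0.08). Both subunits of ribonucleotide reductase had log2 fold changes of -0.04, with SE 0.07 for RRM1 and 0.11 for RRM2, and neither was called. For RRM2 the 4 PC3 libraries lay at 833, 747, 793 and 597 CPM around the HCT116 libraries at 777, 762 and 722 CPM, so the lines overlapped.

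The regulators of the G1/S transition went in opposite directions. E2F1 (chr20:32263283-32274191), a transcription factor of S phase genes, was higher in PC3, at 83.5, 78.5, 85.3 and 72.1 CPM against 38.8, 34.8 and 35.7 CPM in HCT116. No library of either line reached the range of the other. The difference was 2.16-fold (log2 fold change 1.11, SE 0.08, adjusted p = 6.1e-07). CCNE1 (chr19:30302898-30315219) was lower, at 16.3, 13.2, 15.1 and 12.3 CPM in PC3 against 49.0, 48.3 and 50.6 CPM in HCT116. That difference was 3.51-fold (log2 fold change -1.81, SE 0.10, adjusted p = 1.2e-07), again with no overlap. CCNE2, the other cyclin E gene, was separated by a narrow margin, with 49.8, 31.1, 38.4 and 28.2 CPM in PC3 against 53.1, 50.4 and 59.7 CPM in HCT116. Its log2 fold change of -0.58 (SE 0.18, adjusted p = 0.013) was not called without normoxic HCT116 replicate 3 (adjusted p = 0.052).

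Of the 7 recombination and repair genes 3 were lower in PC3, 1 was higher and 3 were not called, with a median log2 fold change of -0.10. BLM, a helicase that dissolves recombination intermediates, FANCD2 and BRCA1 were lower in PC3 (log2 fold changes -0.77, -0.63 and -0.44). RAD54L, EXO1 and MSH6 had log2 fold changes of 0.02, 0.02 and -0.10 and were not called. BRCA2 (chr13:32889223-32974405), which acts in strand exchange, was higher in PC3, at 31.9, 37.7, 36.3 and 31.5 CPM against 27.6, 29.3 and 24.7 CPM in HCT116. The lines did not overlap, by a small margin. Its log2 fold change was 0.32 (SE 0.09, adjusted p = 0.0070), and the call was lost in a fit over all 4 groups (adjusted p = 0.059). MCM8 (chr20:5931298-5979623), an MCM protein outside the replicative ring that acts in recombination, was also higher, at 78.7, 89.8, 92.1 and 87.8 CPM against 54.4, 53.7 and 50.3 CPM in HCT116. Its difference was 1.63-fold (log2 fold change 0.70, SE 0.06, adjusted p = 3.9e-06), with no overlap.

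**Figure D2:**
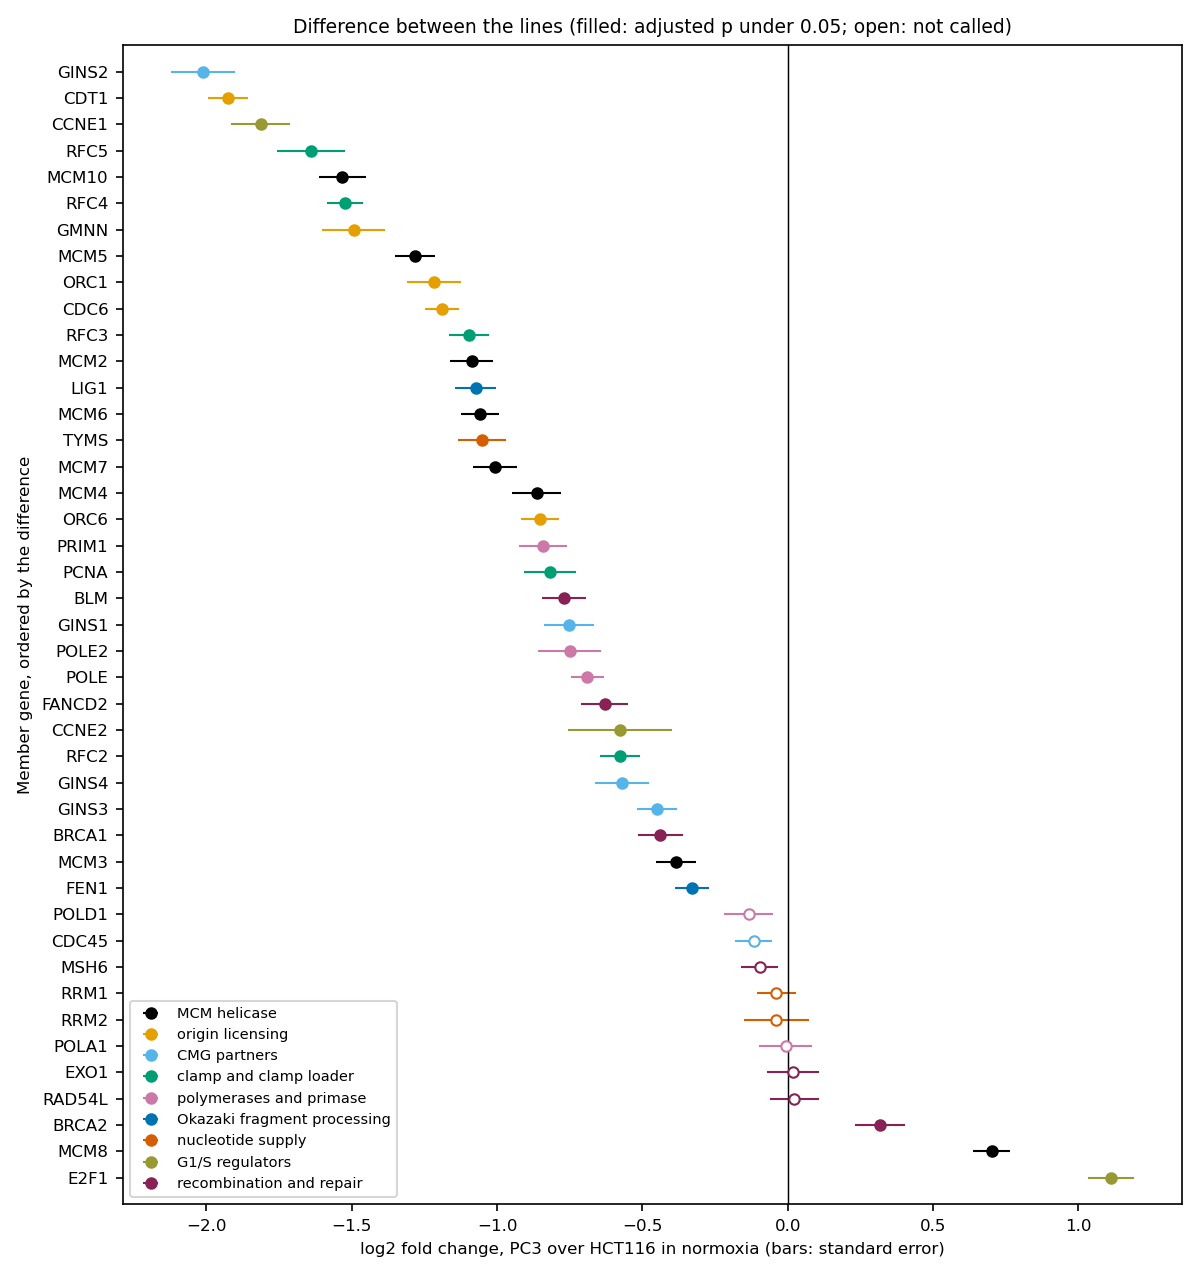
Log2 fold change of PC3 over HCT116 in normoxia for each of the 43 genes (points, coloured by function), with the standard error as bars, over 4 PC3 and 3 HCT116 libraries. Filled points passed the test; 32 lie to the left, from GINS2 at -2.01 to FEN1 at -0.33, and 3 to the right, with E2F1 at 1.11.

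The same contrast was made in the hypoxic libraries, an alternative added after seeing the data. There 34 of the 43 were lower in PC3 and 2 were higher, against 38.1% and 40.6% of the 14890 genes tested, and 34 members had the call they had in normoxia. BRCA2 was no longer called (log2 fold change 0.13, SE 0.18, adjusted p = 0.54). RRM2 (-0.29, SE 0.09, adjusted p = 0.011) and MSH6 (-0.26, SE 0.08, adjusted p = 0.012) were called in hypoxia.

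Other genes of the same pathways, from lists drawn up alongside the members, were also compared between the lines in normoxia. Of the 108 genes 58.3% were lower in PC3 and 29.6% were higher, against 40.5% and 42.9% of all genes tested. Of 12 other licensing and firing genes 10 were lower in PC3 and none was higher, and the largest difference was in MCMBP, an MCM binding protein, at 107 ± 7.94 CPM in PC3 and 502 ± 10.5 CPM in HCT116 (log2 fold change -2.25, SE 0.07). Of 24 other fork genes 14 were lower and 7 higher, of 9 other nucleotide supply genes 6 were lower and 2 higher, and of 18 other G1/S regulators 11 were lower and 6 higher. RPA3, a subunit of the single-strand binding complex RPA, was lower in PC3 (log2 fold change -2.15, SE 0.16), and SAMHD1, which degrades deoxynucleotides, was higher (2.15, SE 0.11). Of 33 other recombination and Fanconi genes 17 were lower and 12 higher, and RMI1, a partner of BLM, was lower by 3.98-fold. Of 6 checkpoint kinase genes 3 were lower and 2 higher. Of 6 mismatch repair genes 2 were lower and 3 higher, and MSH3 (log2 fold change 3.26, SE 0.08) was among the higher ones. MSH3 lay at 26.7, 31.1, 29.4 and 30.6 CPM in PC3 and at 3.10, 3.17 and 2.84 CPM in HCT116. Of 15 genes in a mitotic list, kept as context, 10 were lower in PC3 and 3 higher. The summed abundance of the mitotic list was 2703 to 3344 CPM in normoxic PC3 libraries and 4000.2 to 4088 CPM in normoxic HCT116 libraries, so it moved with the members, and its part in the difference was not tested.

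The next comparison was hypoxia against normoxia in PC3. Of the 43 genes, 3 were lower in hypoxia (RFC4, BLM and LIG1) and 0 were higher by edgeR, against 5.29% and 6.03% of the 14309 genes tested. At an unadjusted p under 0.05 there were 10 members, against 27.7% of all genes, and DESeq2 called 5 lower and 0 higher, against 8.46% and 9.74% of all genes. The median log2 fold change of the 43 was -0.14, against 0.00 over all genes, and 35 of the 43 lay below 0. Without hypoxic replicate 1 the median was -0.06 and 29 lay below 0. With total-count scaling it was -0.24, against -0.10 over all genes. The smallest change called among the members was 0.33 on the log2 scale without a block, and the median standard error was 0.10. Scaling moved the balance of calls. With total-count scaling 9 members were lower and 0 higher, against 12.1% and 3.93% of all genes, and with upper-quartile scaling 4 were lower and 0 higher, against 7.32% and 4.76%.

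Libraries of PC3 with the same replicate number deviated together, most clearly in replicate 1 (correlation 0.675) and least in replicate 3 (0.14). Normoxic replicate 4 with hypoxic replicate 2 reached 0.198, and normoxic replicate 2 with hypoxic replicate 3 reached 0.136. The labels do not state a pairing, so the block rests on these correlations. With the replicate number as a block, 13 members were lower in hypoxic PC3 cells and 0 were higher, against 13.6% and 14.9% of the genes tested in the same fit. They were the 3 above with MCM10, GMNN, GINS1, GINS4, RFC3, POLD1, POLE2, PRIM1, RAD54L and FANCD2. By pairs of the same number, 21 members were lower in hypoxia in all 4, against 26.1% of genes, and 3 (CDC6, FEN1 and E2F1) were higher in all 4, against 25% of genes.

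RFC4 (chr3:186507669-186524847), a subunit of the clamp loader, lay at 35.6, 39.2, 41.6 and 38.1 CPM in normoxic PC3 cells and at 27.3, 31.5, 31.6 and 25.2 CPM in hypoxic cells. All hypoxic libraries were below all normoxic ones, as in 11.3% of all genes tested in PC3, while 9.62% were apart upward. The log2 fold change was -0.41 (SE 0.09, adjusted p = 0.017), and -0.42 with the block (adjusted p = 0.0032). The call was lost without normoxic replicate 2 (adjusted p = 0.063) or normoxic replicate 3 (adjusted p = 0.068). Its gene overlaps EIF4A2 on the other strand, whose own log2 fold change was -0.12 (SE 0.09, adjusted p = 0.42).

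BLM (chr15:91260577-91359396) lay at 25.9, 32.3, 29.9 and 28.5 CPM in normoxic PC3 cells and at 20.1, 23.4, 24.3 and 19.9 CPM in hypoxic cells, again with no overlap. The log2 fold change was -0.41 (SE 0.09, adjusted p = 0.022). Without normoxic replicate 2 (adjusted p = 0.079), normoxic replicate 3 (adjusted p = 0.076) or hypoxic replicate 2 (adjusted p = 0.053) it was not called. LIG1 (chr19:48618702-48673860) lay at 35.7, 39.6, 41.5 and 41.9 CPM in normoxia and at 26.9, 35.7, 31.9 and 31.6 CPM in hypoxia. Here normoxic replicate 1 and hypoxic replicate 2 were level and the other libraries were apart. The log2 fold change was -0.33 (SE 0.09, adjusted p = 0.040), and it was not called without hypoxic replicate 1 (adjusted p = 0.064), normoxic replicate 2 (0.11), normoxic replicate 3 (0.13), hypoxic replicate 3 (0.089), normoxic replicate 4 (0.10) or hypoxic replicate 4 (0.056). With the block the adjusted p was 0.0032 for BLM and 0.0071 for LIG1.

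RFC3 (chr13:34392206-34540695), the partner of RFC4 in the clamp loader, fell just short of the threshold in PC3 by edgeR with TMM scaling and no block. It lay at 48.3, 54.3, 56.9 and 48.4 CPM in normoxia and at 33.8, 39.0, 48.0 and 39.9 CPM in hypoxia, and every hypoxic library was below every normoxic one. Its log2 fold change was -0.37 (SE 0.10, adjusted p = 0.053), and -0.37 with the block (adjusted p = 0.0065). It was also called by DESeq2 (adjusted p = 0.019), in one fit over all 4 groups (0.015), with upper-quartile (0.037) or total-count scaling (0.022) and with a minimum of 10 counts in every library (0.049). It was not called with median-of-ratios scaling or with no filter on low counts. When each library was left out, RFC3 was called only without hypoxic replicate 3 (adjusted p = 0.024 by edgeR). MCM10 had a log2 fold change of -0.35 (SE 0.12, adjusted p = 0.083), and -0.36 with the block (adjusted p = 0.0032). The ring subunits MCM2 to MCM7 lay between -0.11 and 0.04, and RRM1, RRM2 and POLE within 0.05 of 0. E2F1 had the largest positive log2 fold change of the members, 0.22 (SE 0.08, adjusted p = 0.11), followed by TYMS at 0.15 and CDC6 at 0.14.

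The same contrast in HCT116 gave calls in both directions. In hypoxia 8 of the 43 genes were lower (MCM8, MCM10, GINS1, RFC3, RFC4, POLE2, RAD54L and FANCD2) and 3 were higher (MCM2, FEN1 and RRM2). Among the 14120 genes tested 11.3% were lower and 14.6% were higher. The median log2 fold change of the members was -0.01, against 0.00 over all genes, and 22 of the 43 lay below 0. The median standard error, 0.07, was smaller than in PC3.

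RFC4 showed the largest fall in HCT116, from 107, 107 and 115 CPM in normoxia to 79.9, 75.7 and 74.5 CPM in hypoxia. The log2 fold change was -0.50 (SE 0.07, adjusted p = 0.00042). RFC3 went from 108, 107 and 114 CPM to 87.1, 76.4 and 79.5 CPM (log2 fold change -0.42, SE 0.07, adjusted p = 0.0018). Both were lower in every hypoxic library than in any normoxic one, while RFC2 and RFC5, the other small subunits of the loader, had log2 fold changes of 0.13 (SE 0.07, adjusted p = 0.17) and -0.15 (SE 0.07, adjusted p = 0.13). With 3 libraries per group, 22.2% of all genes tested in HCT116 were apart downward in this way and 20.3% upward. FANCD2 (chr3:10068054-10143616) fell from 102, 102 and 94.0 CPM to 73.7, 76.0 and 78.1 CPM (log2 fold change -0.37, SE 0.06, adjusted p = 0.0016), with no overlap. These 3 were called without any 1 of the 6 libraries. EIF4A2, which overlaps RFC4, had a log2 fold change of -0.16 (SE 0.15, adjusted p = 0.45).

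The remaining falls in HCT116 were smaller and depended on single libraries. MCM10 went from 140.2, 139.6 and 129.6 CPM to 114, 108 and 119 CPM (log2 fold change -0.25, SE 0.06, adjusted p = 0.017), with no overlap. Without normoxic replicate 1, normoxic replicate 2 or hypoxic replicate 2 its adjusted p was 0.055, 0.061 and 0.060. MCM8 went from 54.4, 53.7 and 50.3 CPM to 45.8, 44.4 and 45.2 CPM (log2 fold change -0.21, SE 0.06, adjusted p = 0.028), also with no overlap. Without normoxic replicate 1, normoxic replicate 2, hypoxic replicate 2 or hypoxic replicate 3 it was not called (adjusted p = 0.086, 0.088, 0.077 and 0.070). GINS1 went from 97.1, 100.1 and 107 CPM to 90.0, 87.6 and 81.0 CPM (log2 fold change -0.22, SE 0.07, adjusted p = 0.044). All hypoxic libraries were lower, but the call was lost without normoxic replicate 2 or 3 (adjusted p = 0.075 and 0.089) and without hypoxic replicate 2 or 3 (0.080 and 0.14).

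POLE2, the second subunit of polymerase epsilon, went from 37.2, 40.1 and 50.6 CPM to 36.6, 32.1 and 32.2 CPM (log2 fold change -0.33, SE 0.11, adjusted p = 0.049). Normoxic replicate 3 stood highest, and without it the log2 fold change was -0.19 (adjusted p = 0.11). The call was also lost without hypoxic replicate 2 (adjusted p = 0.14) or hypoxic replicate 3 (0.16). RAD54L, a DNA translocase of recombination, went from 37.4, 36.3 and 37.0 CPM to 31.0, 32.4 and 33.4 CPM (log2 fold change -0.18, SE 0.06, adjusted p = 0.049). Its groups did not overlap, yet leaving out any 1 of the 6 libraries gave an adjusted p between 0.067 and 0.12.

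The 3 rises in HCT116 were also small. RRM2 (chr2:10260825-10351851) rose from 777, 762 and 722 CPM in normoxia to 956, 864 and 846 CPM in hypoxia (log2 fold change 0.26, SE 0.07, adjusted p = 0.022), with no overlap. The call was lost without hypoxic replicate 1, the highest library (log2 fold change 0.19, adjusted p = 0.082), or normoxic replicate 2 (adjusted p = 0.072). MCM2 (chr3:127317253-127341279) rose from 354, 329 and 308 CPM to 377, 365 and 399.6 CPM (log2 fold change 0.22, SE 0.07, adjusted p = 0.035). It was the single subunit of the helicase ring past the test, and the other 5 had log2 fold changes between -0.01 and 0.14. FEN1 (chr11:61560383-61564710) rose from 200.1, 198 and 189 CPM to 223, 208 and 236 CPM (log2 fold change 0.20, SE 0.06, adjusted p = 0.041), and FADS2, which overlaps it, rose by 0.35. The call of MCM2 was lost without hypoxic replicate 1, normoxic replicate 2, normoxic replicate 3 or hypoxic replicate 3 (adjusted p = 0.079, 0.13, 0.097 and 0.10). That of FEN1 was lost without normoxic replicates 1, 2 or 3 (adjusted p = 0.10, 0.13 and 0.10) or hypoxic replicates 1 or 3 (0.096 and 0.12), and also with median-of-ratios (0.053) or upper-quartile scaling (0.057). With total-count scaling, which put the median of all genes at -0.09 on the log2 scale, none of the 3 passed and 12 members were lower, against 9.11% of all genes higher and 22.3% lower. CCNE2 had the second highest log2 fold change in HCT116, 0.24 (SE 0.11, adjusted p = 0.14), and was not called. It went from 53.1, 50.4 and 59.7 CPM to 74.8, 60.5 and 54.8 CPM, and the groups overlapped.

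Other fits also removed calls in HCT116. In one fit over all 4 groups 3 members were called, RFC3, RFC4 and FANCD2, against 5.13% of all genes lower and 6.05% higher. With the replicate number as a block MCM2 (adjusted p = 0.052), GINS1 (0.066), POLE2 (0.059), FEN1 (0.063) and RAD54L (0.067) were not called, and LIG1 was called higher (0.046). RAD54L was not called with upper-quartile scaling (0.051) or with no filter on low counts (0.072) either.

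**Figure D3:**
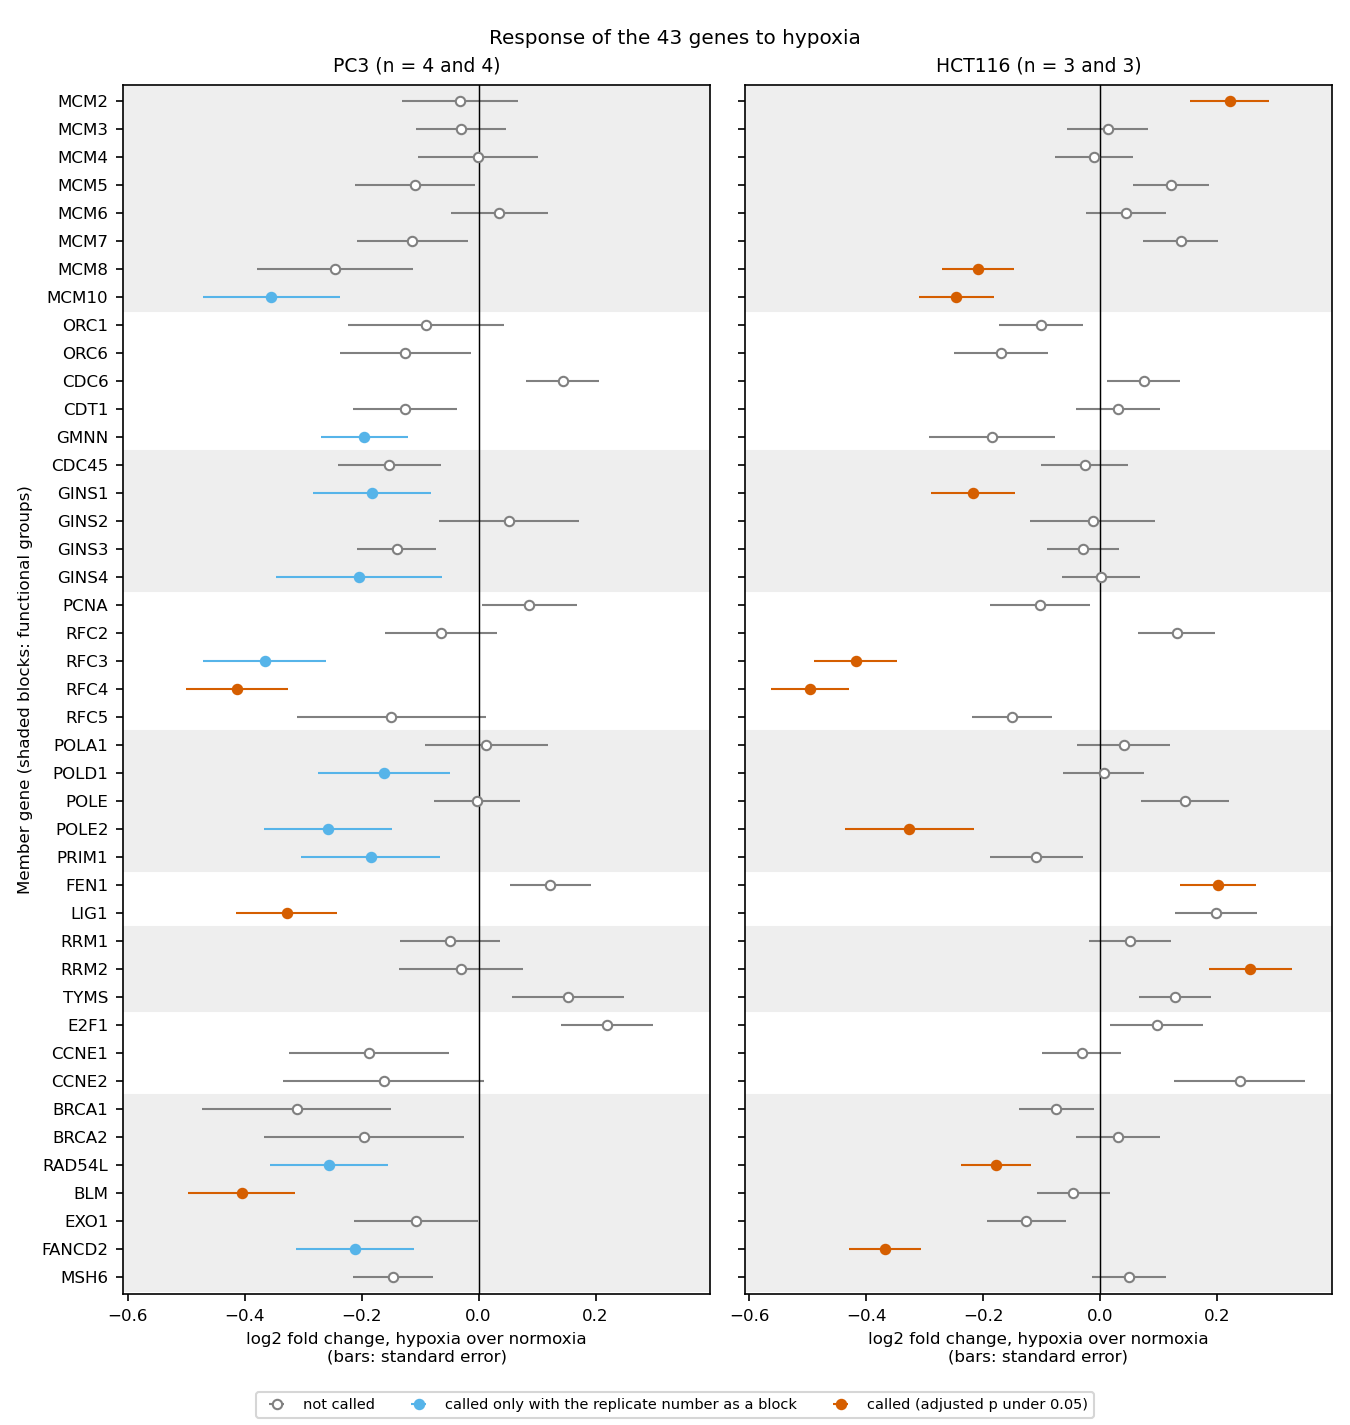
Log2 fold change of hypoxia over normoxia for each of the 43 genes in PC3 (left) and HCT116 (right), with the standard error as bars; orange points passed the test, blue points (PC3 alone) passed it when the replicate number was a block, and open points did not. RFC4 lies furthest to the left in both panels, at -0.41 and -0.50.

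Across the lines, 20 of the 43 genes lay below 0 in both, 6 lay above 0 in both, 15 lay below 0 in PC3 and above it in HCT116, and 2 the other way. RFC4 was called in both lines, which is 1 of the 3 members called in PC3 and 1 of the 11 called in HCT116. With the block in PC3 and none in HCT116, 7 of its 13 were called in HCT116, where 25.9% of all genes tested were called. The share of all genes called in both lines is not given here, so nothing is read from this overlap. With the block in HCT116 as well, GINS1, POLE2 and RAD54L were no longer called there, and LIG1 was called higher. The difference between the responses was tested itself as the interaction of line and oxygen over all 14 libraries. None of the 43 members passed that test in either direction by edgeR, against 1.31% of the 15493 genes tested with a more negative and 1.01% with a more positive response in PC3. At an unadjusted p under 0.05 there were 2 members, against 16% of all genes, and DESeq2 called 1, LIG1, against 3.53% of all genes with a more negative and 3.29% with a more positive response in PC3. With upper-quartile scaling LIG1 was also called (adjusted p = 0.024), against 1.79% of all genes with a more negative and 0.742% with a more positive response in PC3.

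LIG1 came nearest. It lay at 87.9, 83.1 and 75.9 CPM in normoxic HCT116 cells and at 97.5, 91.0 and 91.2 CPM in hypoxic cells, all hypoxic libraries being higher, with a log2 fold change of 0.20 (SE 0.07, adjusted p = 0.060), whereas in PC3 it was -0.33. The difference was -0.51 (SE 0.13, adjusted p = 0.0501). With the block it was -0.52 (adjusted p = 0.0058), and that fit also called BLM, at -0.35 (adjusted p = 0.039). These 2 members stand against 4.58% of all genes with a more negative and 3.85% with a more positive response in that fit. For RRM2 the difference was -0.27 (SE 0.14, adjusted p = 0.35), so its rise in HCT116 was not shown to differ from PC3. For CCNE2 it was -0.39 (SE 0.23, adjusted p = 0.45). FANCD2, RFC3 and RFC4 had differences of 0.17 (SE 0.14), 0.07 (SE 0.14) and 0.09 (SE 0.12).

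**Figure D4:**
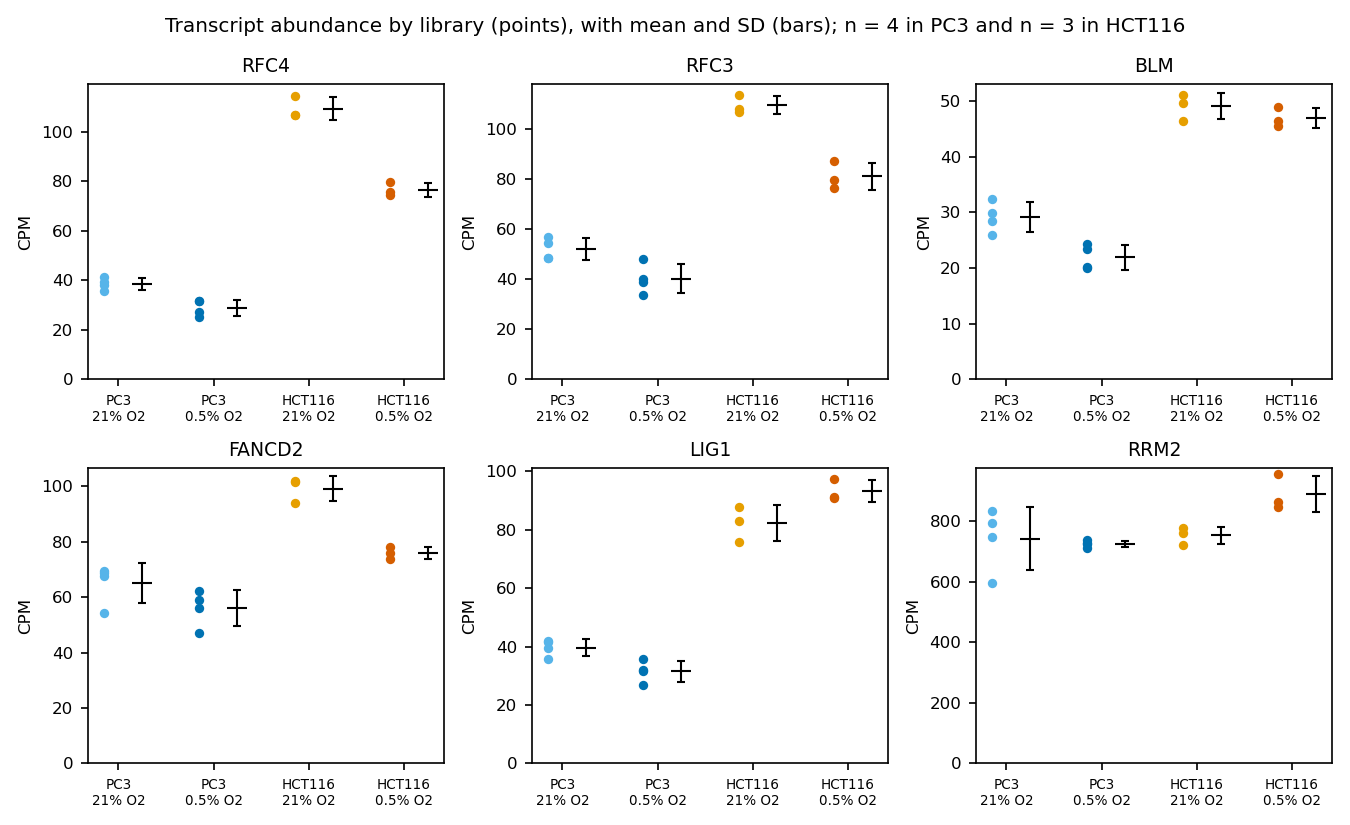
Transcript abundance in CPM of RFC4, RFC3, BLM, FANCD2, LIG1 and RRM2 in each library (points), with mean and SD beside them, in normoxia (21% O2) and hypoxia (0.5% O2). RFC4 and RFC3 are lower in all hypoxic libraries of both lines, and the mean of LIG1 lies lower in hypoxia in PC3 and higher in HCT116.

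The members varied together between replicates of PC3. In normoxic replicate 1 the members lay at a median of -0.15 on the log2 scale from the mean of the normoxic libraries, with 8 of 43 above it. In hypoxic replicate 1 the median was -0.21, with 7 of 43 above. These deviations are as large as the median change in hypoxia. Replicate 3 was the highest in both conditions, at 0.09 with 42 of 43 above and 0.09 with 38 of 43 above. In HCT116 the medians lay between -0.06 and 0.04. The share of the mitotic list did not follow in the same order, with 2703 CPM in normoxic replicate 1 and 3283 CPM in normoxic replicate 4, whose members summed to nearly the same level. Without both libraries of replicate 1, an alternative added after seeing the data, 4 members were lower in hypoxic PC3 cells (the same 3 and RAD54L) and 0 higher, against 5.42% and 7.04% of all genes, and the median log2 fold change was -0.11.

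Hypoxic replicate 4 of PC3 stood apart by transcript length. Over 3040 genes with a canonical transcript above 5000 bases, its median deviation from the mean of the hypoxic libraries was -0.11 on the log2 scale, and over 2639 genes below 2000 bases it was 0.15. In the other 13 libraries these medians lay between -0.04 and 0.05 for long and between -0.10 and 0.04 for short transcripts. The 7 members above 5000 bases (MCM8, POLA1, POLE, BRCA1, BRCA2, BLM and FANCD2) lay at a median of -0.19 in this library, and at -0.16 in normoxic replicate 1. BRCA2 was at 19.3 CPM and BRCA1 at 30.3 CPM there. Without it the log2 fold change in hypoxic PC3 cells went from -0.20 to -0.03 for BRCA2, from -0.31 to -0.16 for BRCA1 and from -0.25 to -0.12 for MCM8, none of which was called either way. BLM stayed called (-0.36, adjusted p = 0.033 by edgeR). Over the 43 members, 2 (RFC4 and BLM) were lower and 0 higher without this library, against 6.52% and 7.91% of all genes in that fit, and the median log2 fold change was -0.12.

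**Figure D5:**
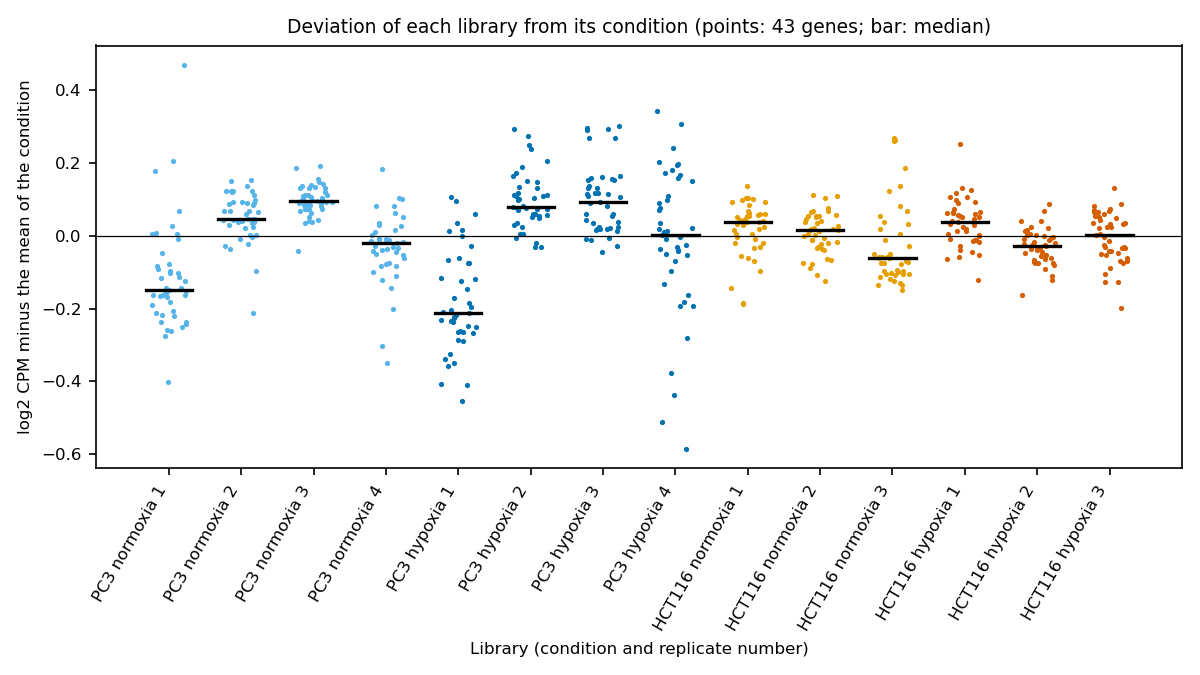
Deviation of log2 CPM from the mean of its own condition for the 43 genes (points) in each of the 14 libraries, with the median as a bar. Both replicate 1 libraries of PC3 lie low, with medians of -0.15 and -0.21, and the medians of HCT116 stay between -0.06 and 0.04.

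Other genes of the pathways were also compared between hypoxia and normoxia. In PC3, 13 of the 108 (12%) were lower and 1 (0.926%) was higher, against 5.29% and 6.03% of all genes tested. The largest falls were in RAD52, a recombination mediator (log2 fold change -0.65, SE 0.16), in TIPIN, which protects forks (-0.63, SE 0.12), and in the mismatch repair gene PMS2 (-0.45, SE 0.10), which has near-identical copies that the counting may not separate. The single rise was in E2F7, an E2F repressor (0.28, SE 0.07). In HCT116, 27 (25%) were lower and 15 (13.9%) were higher, against 11.3% and 14.6% of all genes tested. DNA2, a nuclease at forks and breaks (log2 fold change -0.54, SE 0.07), TIPIN (-0.46, SE 0.10) and DBF4, the activator of the CDC7 kinase (-0.41, SE 0.09), fell the most. TK1, the thymidine kinase of S phase (0.57, SE 0.07), RMI2, a partner of BLM (0.57, SE 0.10), and the cyclin-dependent kinase inhibitor gene CDKN1A (0.55, SE 0.11) rose the most.

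By list, other recombination and Fanconi genes held 5 of 33 lower and 0 higher in PC3 and 12 lower and 2 higher in HCT116. Other fork genes held 3 of 24 lower in PC3 and 5 lower and 4 higher in HCT116. Other licensing and firing genes held 2 of 12 lower in PC3 and 4 lower and 1 higher in HCT116. Other nucleotide supply genes held 0 of 9 called in PC3 and 2 lower and 3 higher in HCT116. Other G1/S regulators held 1 of 18 lower and 1 higher in PC3 and 2 lower and 4 higher in HCT116, mismatch repair 1 of 6 lower in PC3 and 1 higher in HCT116, and checkpoint kinases 1 of 6 lower in PC3 and 2 lower in HCT116. Among the 15 mitotic genes none was called in PC3, with a median log2 fold change of 0.04. MKI67 and CENPF, both with transcripts above 5000 bases, were far lower in hypoxic replicate 4 than in the other hypoxic libraries, at 236 against 480.5, 604 and 546 CPM and at 143 against 374, 397 and 387 CPM. Without this library, an alternative added after seeing the data, 1 mitotic gene was higher in hypoxic PC3 cells, MKI67 (log2 fold change 0.43, adjusted p = 0.023 by edgeR), and CENPF was at 0.23 (adjusted p = 0.054). In HCT116 CCNB1, BUB1, BUB1B and CDC20 were lower, and MKI67 and CENPF were higher. The sum of the mitotic list lay between 4000.2 and 4088 CPM in normoxic and between 3702 and 3872 CPM in hypoxic HCT116 libraries, and its part in the changes of the members was not tested.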

How the data were processed

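Cells of each line were harvested at high confluency and polyadenylated RNA was prepared with the NEB Ultra II kit for paired-end sequencing. Per the labels and the study's methods, the authors aligned reads with HISAT2 (version 2.05) to the ERCC spike-in and then to GRCh37, and deposited whole-number counts per RefSeq gene from HTSeq (version 0.5.4p3, intersection-strict), with no normalisation. The strand setting and RefSeq release are not given in the sources used here, so reads of overlapping genes could be lost or misassigned. Of the members, 16 overlap another annotated gene. Spike-in reads are not used here, and all values are relative to the other genes of a library.

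The study describes the replicates as biological. Replicates of a group were never closer than a chi-square of 12.1 per gene (at most 257), and each library was kept as 1 replicate. Depth gives a floor of 3 counts, equal to 0.0201 to 0.0447 CPM, which covers counting error only.

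edgeR (version 4.0.16, R 4.3.3) was fitted to all genes passing filterByExpr, with TMM scaling, a two-sided quasi-likelihood test, Benjamini-Hochberg adjustment and a threshold of 0.05. Standard errors (SE) were obtained from the log2 fold change before shrinkage and the F statistic of the test. CPM used TMM factors over all 14 libraries, and CPM per kb used GENCODE v44 canonical transcripts on GRCh37, which also gave the coordinates of genes. Deviations by transcript length used genes with at least 10 counts in every library, of which 90% had a length. Genes were placed in 9 functional groups. All members are named, the called members with the 3 largest changes in each direction or a call that an alternative removed are given in full, and other genes are named where they were among the 3 largest in either direction of a comparison, apart from a few genes not reported here. The members and lists were chosen with earlier results of these data known, and the fits were tested on simulated data. There 200 genes were changed 2-fold, which is more than any member changed in hypoxia. Over the 4 comparisons edgeR recovered 159 to 192 of them with 9 to 13 false calls. DESeq2 recovered 164 to 195 with 25 to 30 false calls.

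Same-numbered PC3 libraries correlated across genes in their deviations from the condition means at 0.675, 0.267, 0.14 and 0.282, so the replicate number was also fitted as a block. Alternatives were other scalings, DESeq2 (version 1.42.0), other filters, one fit over 4 groups, the block and each library left out. The ChIP-seq data of the study are not analysed here.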

Additional observations from a re-analysis of the deposited data

Results flagged for a closer look

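In groups of 4 PC3 libraries, 4 member values stood far from the other 3, among 90 groups examined. The 90 include library totals and summed member levels beside the members. At 1 in 20, chance gives about 4.5, so the number found was no more than that. In normoxic PC3 replicate 1, MCM5 lay at 100.8 CPM against 116 to 119 CPM in the other libraries, POLD1 at 65.3 CPM against 80.4 to 82.8 CPM, and FANCD2 at 54.3 CPM against 67.5 to 69.5 CPM. In hypoxic PC3 replicate 4, ORC6 lay at 26.5 CPM against 36.7 to 38.5 CPM.

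The response to hypoxia differed between the lines, by the interaction test in edgeR, for 2 of 108 genes of the related pathways, 1 in each direction, against 1.31% of all genes with a more negative and 1.01% with a more positive response in PC3. SAMHD1, which degrades deoxynucleotides, had a log2 fold change in PC3 that exceeded the one in HCT116 by 0.72 (SE 0.15, adjusted p = 0.025). It lay at 160, 162, 142 and 123 CPM in normoxic and 221, 189, 201 and 160 CPM in hypoxic PC3 cells, and at 33.3, 34.4 and 30.6 CPM in normoxic and 26.1, 24.998 and 27.4 CPM in hypoxic HCT116 cells. For FANCF, a subunit of the Fanconi core complex, the difference was -0.66 (SE 0.13, adjusted p = 0.018). It lay at 13.9, 14.5, 17.0 and 15.5 CPM in normoxic and 10.2, 11.4, 11.8 and 12.4 CPM in hypoxic PC3 cells, and at 6.08, 5.79 and 6.38 CPM in normoxic and 6.94, 7.71 and 6.96 CPM in hypoxic HCT116 cells.

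Among the 12 hypoxia-induced genes the rise was smaller in PC3 for CA9 (difference -4.35), DDIT4 (-2.57), PDK1 (-2.26), ANKRD37 (-1.76), BHLHE40 (-1.54) and BNIP3 (-1.50). These 6 were called by the interaction test in edgeR, and the other 6 were not. CA9 was scarce, at 0.108 to 0.919 CPM in the PC3 libraries and 0.0921 to 0.147 CPM in normoxic HCT116 cells.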

How the results depend on the processing

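The line difference was the steadiest comparison. The number of members lower in PC3 lay between 31 and 32 when each library was left out, and was 32 under every scaling, filter and DESeq2. The numbers called in hypoxia were small and moved. In PC3 the number lower was 9 with total-count scaling, 5 with DESeq2, 5 in one fit over all 4 groups, 13 with the replicate block, and 0 to 4 when each library was left out, being 0 without normoxic replicate 2 or normoxic replicate 3, where 1.4% and 1.31% of all genes were lower. The one fit called 8.04% of all genes lower. In HCT116 the number higher was 0 with total-count scaling, 0 in one fit over all 4 groups, and 0 to 3 with a library left out. The number lower was 3 in one fit over all 4 groups, 5 with the replicate block, and 3 to 7 with a library left out. Of all genes the one fit called 5.13% lower and 6.05% higher, and between 7.48% and 10.4% were lower and between 9.65% and 13% higher with a library left out. For the difference of the responses the number lower was 1 with median-of-ratios scaling, upper-quartile scaling, total-count scaling, DESeq2 or a minimum of 10 counts in every library, 2 with the replicate block, and 0 to 1 with a library left out. In these fits 1.27%, 1.79%, 1.37%, 3.53% and 1.95% of all genes, in that order, had a more negative response in PC3. With the block the share was 4.58%, and with a library left out it lay between 0.6% and 2.73%. Total-count scaling put the median of all genes at -0.10 in PC3, -0.09 in HCT116 and 0.13 between the lines, against 0.00, 0.00 and 0.03 with TMM. No called member changed direction under any alternative run.

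In HCT116 the same-numbered libraries correlated weakly, at 0.0908, 0.138 and 0.0429, but each correlated best with its own number. Pairs of different numbers lay between -0.0939 and 0.00209. Whether the numbers pair the libraries is not stated in the labels and is left undecided here. The block there called 2 members higher and 5 lower, against 14.9% and 11.7% of all genes, and 6 of these 7 members were among the 11 of the fit without it. The causes of these shifts were not tested. The median standard error of the members was 0.10 in PC3 and 0.07 in HCT116, with 3 to 4 libraries per group.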
